A study of Homo sapiens with 6 samples.

Results

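The Frizzled receptor genes FZD1 to FZD10 were examined for binding of BRACHYURY (BRA), the T-box transcription factor of the primitive streak. A peak was assigned to a gene when its midpoint lay in the gene body or within 50 kb of either end, in the hg19 build. The 10 windows span 1141 kb and hold 66 of the 54994 peaks in the 4 deposited lists. Of these, 38 came from the R&D Systems FLyA list of 25864 peaks, 24 from the R&D Systems FLyB list of 23687, 2 from the Santa Cruz FLyA list of 2436 and 2 from the Santa Cruz FLyB list of 3007.

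Chromatin immunoprecipitation and sequencing (ChIP-seq) was carried out on H9 cells, an established human embryonic stem cell line, after 36 h of differentiation. Both media contained 20 ng/ml FGF2 and 10 μM LY294002, an inhibitor of PI3 kinase. FLyA contained 100 ng/ml activin A in addition and was used to obtain endoderm progenitors, whereas FLyB contained 10 ng/ml BMP4 and was used to obtain mesoderm progenitors. BRA was precipitated with an antibody from R&D Systems (AF2085) or from Santa Cruz (sc-20109), in 1 library per medium and antibody. The antibodies thus gave 2 libraries per medium. Their lists are of very unequal length and were kept apart here, so the counts for each list carry no replicate error, and within an antibody a difference between the media cannot be told apart from a difference between single libraries. Frizzled peaks made up 1.47 per 1000 peaks in FLyA and 1.01 in FLyB with the R&D Systems antibody, and 0.821 and 0.665 with the Santa Cruz antibody, whose values rest on 2 peaks each. Paired by antibody, FLyA was higher by 0.456 per 1000 with R&D Systems and by 0.156 with Santa Cruz. The Santa Cruz lists held the same number of Frizzled peaks, so that difference comes only from the shorter FLyA list (2436 against 3007 peaks). It therefore does not repeat the R&D Systems difference. A two-sided exact permutation test gave p = 0.5, the smallest value that 2 pairs allow. Read depth in numbers is unknown, since the lists hold positions only, so a gene without a peak is not shown to be unbound. The paper reports fewer unique reads and a weaker signal against noise with the Santa Cruz antibody. It therefore based its later analyses on the R&D Systems antibody. The labelled cell types could not be checked against markers, because peak positions carry no expression values.

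Frizzled proteins are membrane receptors that bind WNT ligands through a cysteine-rich domain outside the cell, most often together with the co-receptors LRP5 or LRP6. Inside the cell they recruit Dishevelled, which either stabilises β-catenin or controls cell polarity and movement. In the gastrulating embryo WNT signalling maintains the primitive streak and the expression of BRA itself. By sequence the family divides into FZD1, FZD2 and FZD7, then FZD5 and FZD8, then FZD4, FZD9 and FZD10, and lastly FZD3 and FZD6.

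BRA peaks were unevenly spread over the family. With the R&D Systems antibody, 8 of the 10 windows held a FLyA peak and 8 held a FLyB peak, and 7 held both. FZD3 had peaks in FLyA alone, FZD6 in FLyB alone, and FZD9 had no peak in any list. As background, the chromosomes were divided into 25774 tiles of 114 kb, the mean width of the windows, of which 52.6% held a FLyA peak, 45.2% a FLyB peak and 34.0% both. These tiles include stretches without genes and stretches that reads cannot be placed on, whereas every window holds a gene, so the percentages describe the chromosomes and say nothing of how other genes compare. Peak density in the windows was 3.33 per 100 kb in FLyA and 2.10 in FLyB, against 0.879 and 0.805 over the chromosomes.

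**Figure D1:**
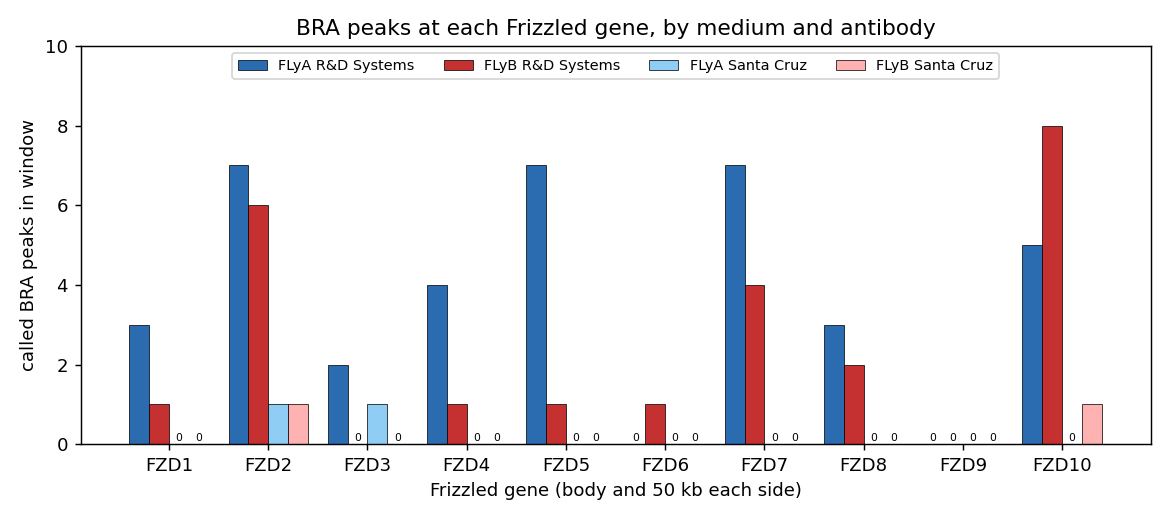
Number of called BRA peaks (vertical axis) in the window of each Frizzled gene (horizontal axis), with 1 bar for each medium and antibody and zeros written out; there are no error bars because each bar is 1 library. FZD2, FZD5 and FZD7 have 7 FLyA peaks each with the R&D Systems antibody, FZD10 has the most FLyB peaks, 8, and FZD9 has none.

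The windows differed widely in how many peaks they held. FLyA counts ran from 0 to 7 with a median of 3.5, and FLyB counts from 0 to 8 with a median of 1. FZD2, FZD5 and FZD7 each reached 7 FLyA peaks, a number that 0.640% of tiles reached or exceeded. FZD10 held 8 FLyB peaks, which 0.586% of tiles reached or exceeded. FZD2, FZD7 and FZD10 together contributed 19 of the 38 peaks in FLyA and 18 of the 24 in FLyB.

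**Figure D2:**
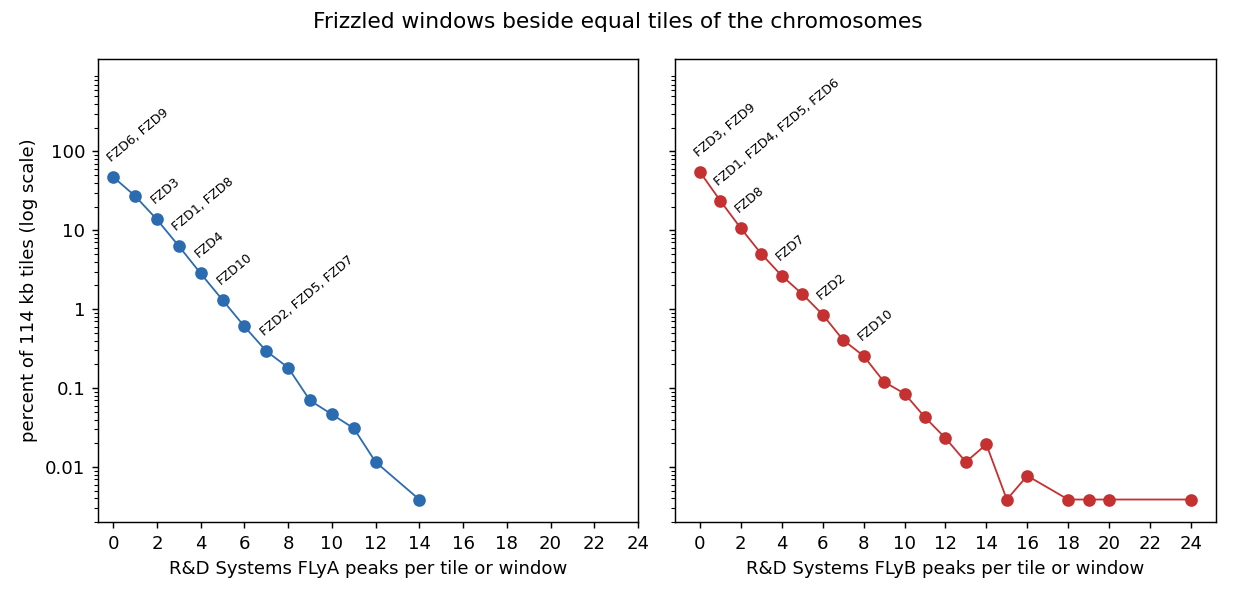
Percentage of 114 kb tiles (vertical axis, log scale) that hold a given number of R&D Systems peaks (horizontal axis), for FLyA on the left and FLyB on the right; gene names mark the count in each Frizzled window. FZD2, FZD5 and FZD7 lie at 7 FLyA peaks and FZD10 at 8 FLyB peaks, far along the falling curve, while FZD6 and FZD9 lie at 0 in FLyA.

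In 7 members the FLyA count was above the FLyB count, in 2 (FZD6 and FZD10) it was below, and for FZD9 both were 0. Of all tiles, 7587 (29.4%) held more FLyA than FLyB peaks and 5522 (21.4%) held more FLyB peaks. The rest were ties, and 34.0% of tiles held no peak in any list, whereas only FZD9 was a tie here. The tile percentages are thus low for that reason and cannot be set directly against the count of members. A single base of overlap (1 bp) was enough for a site to count as shared. No FLyB peak overlapped 25 of the 38 FLyA peaks, which is 65.8% (exact Clopper-Pearson 95% interval 48.6 to 80.4%, counting error only) and close to the 67.0% of the whole FLyA list. No FLyA peak overlapped 10 of the 24 FLyB peaks, or 41.7% (22.1 to 63.4%), against 63.9% of the whole FLyB list. The intervals treat peaks as independent, which neighbouring peaks are not.

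The shared sites were concentrated at 2 genes. FZD2 and FZD10 held 8 of the 13 shared FLyA peaks. Without them 21 of 26 FLyA peaks (80.8%) and 5 of 10 FLyB peaks were unshared, against 67.0% and 63.9% of the whole lists. The 2 genes were left out after seeing the data, because they held the most shared sites. That choice by itself raises the unshared share, so the remainder does not show that the other members are more specific to a medium. Merging overlapping peaks of both R&D Systems lists gave 48 sites, of which 25 were called in FLyA only, 13 in both media and 10 in FLyB only. In the whole lists, 17320 FLyA and 15129 FLyB peaks were unshared and 8544 FLyA peaks overlapped a FLyB peak. These whole-list values count peaks and not merged sites. Overlapping peaks of 400 bp have close midpoints by definition. At the 13 shared FLyA peaks the nearest FLyB midpoint lay 2 to 122 bp away, with a median of 49 bp, against 38.0 bp over all shared FLyA peaks. A further FLyB peak, at FZD10, overlapped a FLyA peak by only 15 bp, with midpoints 385 bp apart.

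**Figure D3:**
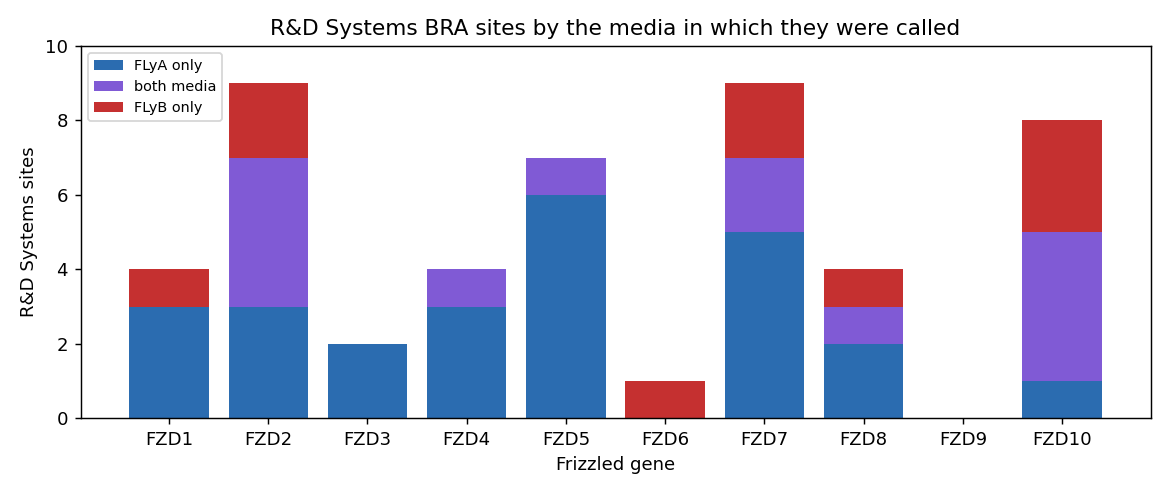
Number of R&D Systems sites (vertical axis) at each Frizzled gene (horizontal axis), stacked by whether the site was called in FLyA only, in both media or in FLyB only. FZD2 and FZD10 have 4 sites each in both media, and FZD5 has 6 sites in FLyA only and none in FLyB only.

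Peaks lay more often before the genes than after them. Of the 38 FLyA peaks, 27 were upstream of the gene start, 2 in the gene body and 9 downstream, and of the 24 FLyB peaks, 19 were upstream, none in the gene body and 5 downstream. Gene ends were taken from the windows and are known to the nearest 1 kb, so a distance under 1 kb means only that a peak was close to the start. For the same reason, downstream peaks at FZD2 (FLyB, 0.0 kb beyond the 3′ end) and FZD8 (FLyA, 0.5 kb) could lie in the gene. Within 5 kb of the gene start, on either side, there were 12 FLyA peaks, at 6 genes, and 9 FLyB peaks, at 4 genes. They include peaks counted as downstream of the gene, at FZD8 in FLyA and at FZD2 and FZD8 in FLyB. Of all 10 kb tiles of the chromosomes, 7.77% held a FLyA peak and 6.78% a FLyB peak. The share of all gene starts with such a peak was not computed here, so these counts do not show that Frizzled starts differ from those of other genes. Distances are given in the direction of transcription, negative upstream.

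**Figure D4:**
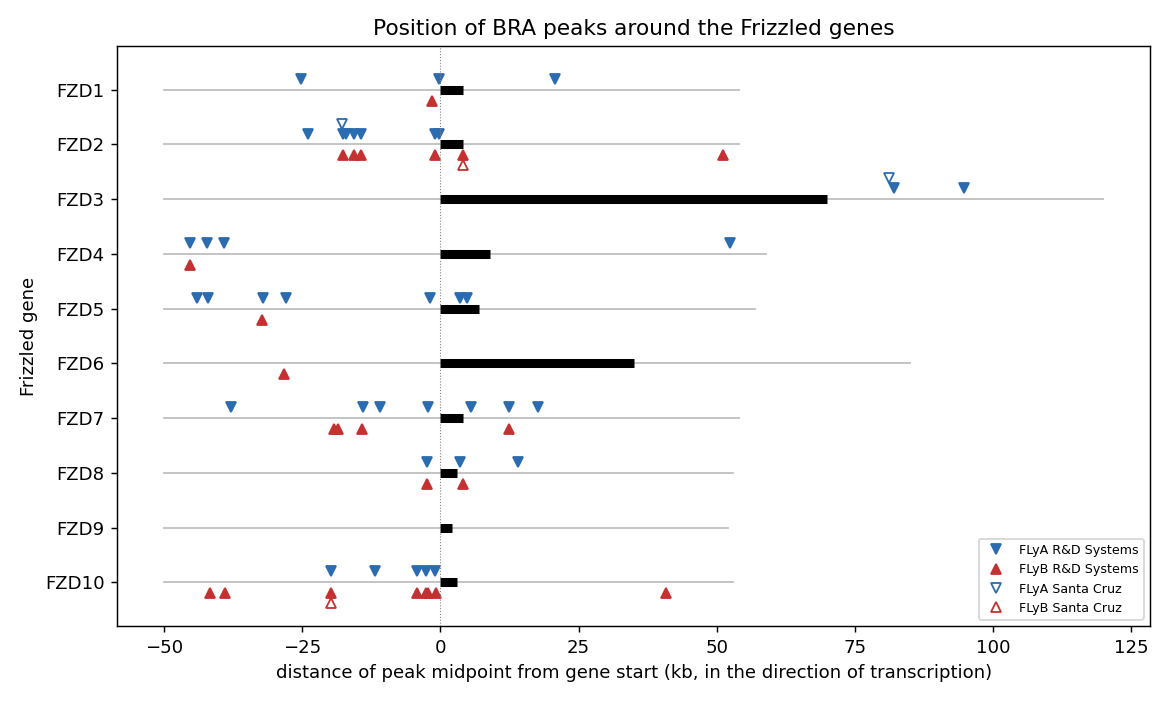
Position of each BRA peak midpoint relative to the gene start (horizontal axis, kb in the direction of transcription) for the 10 Frizzled genes (vertical axis); black bars are gene bodies, grey lines the windows, triangles pointing down FLyA, triangles pointing up FLyB, and open triangles the Santa Cruz antibody. Peaks within 5 kb of the gene start were called in both media at FZD1, FZD2, FZD8 and FZD10, without overlap at FZD1, and the row of FZD9 is empty.

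FZD2, which can signal without β-catenin in response to WNT5A, was the only member with peaks in all 4 lists. Its window on chromosome 17 held 7 FLyA and 6 FLyB peaks with the R&D Systems antibody and 1 of each with the Santa Cruz antibody. The R&D Systems peaks formed 2 groups. The first, 14.3 to 17.7 kb upstream, consisted of 3 sites called in both media, of which the outermost is at chr17:42617161-42617560 in FLyA and at chr17:42617080-42617479 in FLyB. Its second site lay 15.6 kb upstream in both media and its innermost 14.3 kb upstream, where the midpoints were 2 bp apart. A further peak, 17.1 kb upstream, was called in FLyA alone, 593 bp from the nearest FLyB midpoint. The second group lay at the gene start, with a site called in both media 1.0 kb upstream (chr17:42633811-42634210 in FLyA, 3 bp from the FLyB midpoint) and a FLyA peak 0.3 kb upstream. The remaining FLyA peak lay 24.0 kb upstream. In FLyB alone, a peak lay at the 3′ end of the gene (chr17:42638846-42639245), and another lay 47.2 kb beyond that end.

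Both antibodies placed peaks in these FZD2 regions, and the Santa Cruz antibody, with 1 peak per medium, did so at a different one in each medium. The Santa Cruz FLyA peak at chr17:42616979-42617378 overlapped the R&D Systems FLyA peak 17.6 kb upstream by 218 bp, and the FLyB peak of that site lay 101 bp from it. The Santa Cruz FLyB peak at chr17:42638943-42639342 overlapped the R&D Systems FLyB peak at the 3′ end of the gene by 303 bp. That 3′ site was thus called in FLyB with both antibodies and in FLyA with neither, the nearest R&D Systems FLyA midpoint being 4356 bp from the R&D Systems FLyB midpoint. Chromosome 17 is rich in peaks in general. The 13 R&D Systems peaks of FZD2 were reached or exceeded by 0.691% of all tiles and by 5.78% of the tiles on chromosome 17.

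**Figure D5:**
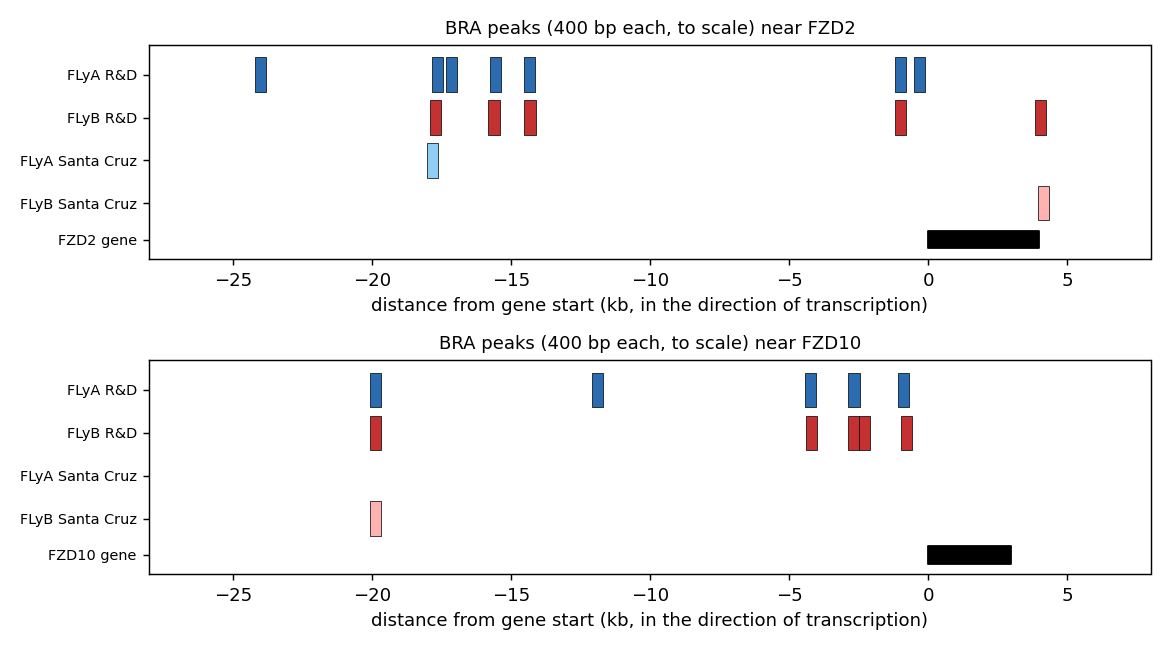
Peaks drawn to scale (400 bp each) against distance from the gene start (horizontal axis, kb) for FZD2 above and FZD10 below, with 1 row per medium and antibody (vertical axis) and the gene as a black bar; more distant peaks are not drawn. At FZD2 3 sites recur in both media 14.3 to 17.7 kb upstream, and at FZD10 peaks of both media line up 19.9, 4.2, 2.7 and close to 0.9 kb upstream.

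FZD7, a receptor for β-catenin signalling that is abundant in human embryonic stem cells, had no Santa Cruz peak but held 7 FLyA and 4 FLyB peaks with the R&D Systems antibody. Of its 7 FLyA peaks 5 were unshared, and of its 4 FLyB peaks 2 were unshared. In the whole lists 67.0% of FLyA and 63.9% of FLyB peaks were unshared, so its split was not unusual. Merged, its peaks gave 9 sites. Those in both media were at chr2:202884654-202885053, 14.1 kb upstream, and at chr2:202911345-202911744, 8.5 kb beyond the 3′ end, with midpoints 76 and 71 bp from those in FLyB. The FLyA peak closest to the gene start lay 2.2 kb upstream, and its nearest FLyB midpoint was 12056 bp away. Of the other FLyA-only peaks, 2 lay 38.0 and 10.9 kb upstream and 2 lay 1.6 and 13.6 kb beyond the 3′ end. The FLyB-only peaks formed a pair 19.3 and 18.6 kb upstream, where no FLyA peak was called.

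FZD1, the remaining member of this group and a receptor for β-catenin signalling, had 3 FLyA peaks and 1 FLyB peak, none of them shared and none found with the Santa Cruz antibody. The media differed here within the promoter region. A FLyA peak at chr7:90893492-90893891 lay 0.3 kb upstream of the gene start, whereas the FLyB peak at chr7:90892216-90892615 lay 1.6 kb upstream, 1276 bp from it. The other FLyA peaks were 25.3 kb upstream and 16.7 kb beyond the 3′ end.

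The promoters of FZD1, FZD5, FZD8 and FZD9 are shown because BRA peaks came to within 2.4 kb of the first 3 starts while FZD9 had none. The sequences are from RefSeq (GRCh38.p14, not the build of the peaks), run from 250 bases before to 50 bases after the gene start, and are written 5′ to 3′ on the strand of the gene. Capitals mark ATTGG, the reverse complement of the CCAAT box.
FZD1 (chr7:91264183-91264482, plus strand): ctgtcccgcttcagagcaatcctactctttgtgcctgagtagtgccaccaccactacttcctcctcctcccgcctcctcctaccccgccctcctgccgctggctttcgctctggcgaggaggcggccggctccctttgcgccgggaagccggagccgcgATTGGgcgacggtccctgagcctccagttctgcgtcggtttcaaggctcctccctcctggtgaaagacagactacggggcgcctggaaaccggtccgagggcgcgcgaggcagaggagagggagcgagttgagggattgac
FZD5 (chr2:207769857-207770156, minus strand): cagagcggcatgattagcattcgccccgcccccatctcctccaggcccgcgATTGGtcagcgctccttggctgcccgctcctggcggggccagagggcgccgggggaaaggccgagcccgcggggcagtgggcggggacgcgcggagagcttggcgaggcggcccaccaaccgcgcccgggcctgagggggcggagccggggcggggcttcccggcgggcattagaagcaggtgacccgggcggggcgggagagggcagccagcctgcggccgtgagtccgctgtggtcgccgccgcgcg
FZD8 (chr10:35642247-35642546, minus strand): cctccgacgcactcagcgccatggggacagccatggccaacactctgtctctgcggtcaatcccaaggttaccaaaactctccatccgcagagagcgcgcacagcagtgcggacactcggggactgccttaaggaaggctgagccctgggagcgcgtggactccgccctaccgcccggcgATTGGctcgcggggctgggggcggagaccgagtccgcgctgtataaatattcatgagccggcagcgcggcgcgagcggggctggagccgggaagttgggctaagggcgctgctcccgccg
FZD9 (chr7:73433528-73433827, plus strand): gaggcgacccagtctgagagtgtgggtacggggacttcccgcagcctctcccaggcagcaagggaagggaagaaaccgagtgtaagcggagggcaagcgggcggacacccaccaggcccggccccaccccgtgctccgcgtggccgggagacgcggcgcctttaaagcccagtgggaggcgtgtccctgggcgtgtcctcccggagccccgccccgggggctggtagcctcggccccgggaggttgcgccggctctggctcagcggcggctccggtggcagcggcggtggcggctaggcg

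Of the 10 members, 5 matched this promoter table, FZD4 being the other. The T-box motif TCACACCT, searched on both strands, was in none of the 5, against 0.980% of all 35116 promoters of the same length. Its core TCACAC, which that motif contains, was in none either, against 12.0% of all. With shares this low among all promoters, finding neither in 5 promoters says little about these genes. The CCAAT box, in either direction, was in 4 of the 5 (all but FZD9), against 34.6% of all promoters. Among these 4 was FZD4, not shown above, whose nearest peak lay 39.2 kb upstream of its start. The letters GCGATTGG, which contain ATTGG and were chosen after the sequences were seen, were in FZD1, FZD5 and FZD8, against 1.13% of all. GC content was 65.7% to 79.7% in the 5 promoters, against a median of 58.7%. No genome of the build of the peaks was used, so the sequence under the peaks themselves was not searched.

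FZD5, known for its part in eye and placental development, showed the widest difference between the media. It held 7 FLyA peaks and 1 FLyB peak, an excess of 6 that 0.0854% of tiles reached or exceeded. By the rounded gene ends, it was also the only member with peaks counted inside the gene, 4.8 and 3.6 kb past the gene start, both in FLyA. Another FLyA peak lay 1.9 kb upstream, at chr2:208635745-208636144. The nearest FLyB midpoint to any of these 3 was over 30 kb away. The only FLyB peak, at chr2:208666072-208666471, 32.3 kb upstream, overlapped a FLyA peak by 325 bp. The other FLyA peaks lay 27.9, 42.0 and 44.1 kb upstream. The stretch of chromosome 2 from 208000001 to 209000000, in which FZD5 lies, held 29 FLyA peaks and 9 FLyB peaks. Of these, 25 FLyA peaks and 5 FLyB peaks were unshared, where 67.0% and 63.9% of the whole lists were. The FZD5 window held 6 of those 25 FLyA-only peaks. With no Santa Cruz peak in the window, the difference was seen with 1 antibody only.

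FZD8, the closest relative of FZD5 and likewise a receptor for β-catenin signalling, had a balanced and compact set of 3 FLyA peaks and 2 FLyB peaks. The media agreed before the gene, at chr10:35932221-35932620, 2.4 kb upstream, where the midpoints were 5 bp apart. After the gene they placed neighbouring peaks that did not overlap. The FLyA peak at chr10:35926320-35926719 was 0.5 kb beyond the 3′ end and the FLyB peak at chr10:35925830-35926229 was 1.0 kb beyond it, 490 bp apart by midpoint. A further FLyA peak lay 11.1 kb beyond the 3′ end.

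FZD10, a receptor expressed in the primitive streak and neural tube of vertebrate embryos, was the member with the most FLyB peaks, 8, beside 5 FLyA peaks, and of the members with peaks in both media it alone had more in FLyB than in FLyA. An excess of 3 or more FLyB peaks was found in 3.16% of tiles. Its peaks gathered before the gene start and most were called in both media. Of the 5 FLyA peaks, 4 overlapped a FLyB peak. These lay 19.9 kb upstream (chr12:130626927-130627326), 4.2 kb upstream (chr12:130642573-130642972), 2.7 kb upstream (chr12:130644137-130644536) and 0.9 kb upstream (chr12:130645917-130646316). The site 2.7 kb upstream was a single FLyA peak facing a pair of FLyB peaks with midpoints 20 and 385 bp from it. The fifth FLyA peak, 11.9 kb upstream, had no FLyB partner. The FLyB-only peaks were all distant, 41.7 and 39.1 kb upstream and 37.8 kb beyond the 3′ end. The site 19.9 kb upstream was also called with the Santa Cruz antibody in FLyB (chr12:130626926-130627325), 16 bp from the R&D Systems FLyB midpoint and 1 bp from the FLyA midpoint. It was the only Frizzled site called in 3 lists besides the outermost FZD2 site.

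FZD4, which besides WNT proteins binds Norrin in the formation of retinal vessels, had 4 FLyA peaks and 1 FLyB peak, none near its start. The nearest lay 39.2 kb upstream. It was followed by FLyA peaks 42.3 and 45.3 kb upstream, and the outermost, at chr11:86711150-86711549, was shared with FLyB at an offset of 57 bp. The remaining FLyA peak was 43.5 kb beyond the 3′ end. The gene PRSS23 lies within 50 kb of FZD4 in RefSeq. Its distance to the peaks was not measured, and which gene the peaks belong to was not tested. FZD9, which lies in the region deleted in Williams syndrome, had no peak in any list, as had 34.0% of tiles.

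FZD3 and FZD6, which act in planar cell polarity, held the fewest peaks of the 9 members with any, although their windows were the widest, at 170 and 135 kb. FZD3 had 2 FLyA peaks, 12.2 and 24.8 kb beyond its 3′ end, and no FLyB peak. Its Santa Cruz FLyA peak lay 11.2 kb beyond the 3′ end, near the first of these but separated from it by 604 bp, so it did not count as shared. FZD6 had a single FLyB peak 28.4 kb upstream, with no FLyA peak in the window.

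Peaks of different media that did not overlap often lay close together. Of the 25 unshared FLyA peaks, 13 had a FLyB midpoint within 10 kb, or 52.0% (31.3 to 72.2%), against 23.7% in the whole list. Of the 10 unshared FLyB peaks, 6 had a FLyA midpoint within that distance, or 60.0% (26.2 to 87.8%), against 31.1%. Peaks of the same list also came in runs of 3 or more within 10 kb, which took in 15 of the 38 peaks in FLyA (39.5%, 24.0 to 56.6%) and 10 of the 24 in FLyB (41.7%, 22.1 to 63.4%), against 8.62% and 14.2% of the whole lists. FLyA runs were found at FZD2, FZD4, FZD5 and FZD10, and FLyB runs at FZD2, FZD7 and FZD10. Both measures are larger wherever peaks are dense, as they were in these windows, and whether they go beyond that density was not tested.

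Few Frizzled sites were called with both antibodies. Of the 4 Santa Cruz peaks, 3 overlapped an R&D Systems peak of the same medium. They covered FZD2 and FZD10, and the other was the FZD3 peak. FLyA peaks lay in 2 windows (FZD2 and FZD3) and FLyB peaks in 2 (FZD2 and FZD10), where 8.54% and 9.85% of tiles held one. None of the 4 was shared between the media with this antibody, as was true of 89.9% of the FLyA list and 91.7% of the FLyB list. Over the whole lists, 31.9% of Santa Cruz FLyA peaks and 79.0% of Santa Cruz FLyB peaks lay on an R&D Systems peak of their medium. Counted the other way, 1 of the 38 R&D Systems FLyA peaks (2.63%, against 3.02% of the list) and 2 of the 24 FLyB peaks (8.33%, against 10.0%) lay on a Santa Cruz peak. At the other 7 members no Santa Cruz peak was called, and their values rest on the R&D Systems antibody alone.

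The assignment of peaks to Frizzled genes rests on distance. In RefSeq, 7 of the 10 members have another protein-coding gene within 50 kb, among them CCNYL1 beside FZD5, KIAA2012 beside FZD7 and GJD4 beside FZD8. FZD1, FZD2 and FZD10 have none. These distances are from the Frizzled gene and not from its peaks. A gene over 50 kb from a member could thus still lie near some of its peaks, and such genes were not listed. With 100 kb on each side, FZD6 took in 4 FLyA and 6 FLyB peaks and FZD9 took in 2 FLyB peaks and still no FLyA peak. With 10 kb on each side, FZD3, FZD4, FZD6 and FZD9 held no R&D Systems peak, and FZD5 held 3 FLyA peaks and no FLyB peak.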

How the data were processed

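BRA ChIP-seq was analysed in 4 libraries, 1 per medium and antibody; the 2 input libraries were not analysed here. The submitters' processing notes name Bowtie 0.12.7 and hg19, and the authors' methods name MACS for peak calling. The authors deposited each peak as a chromosome, start and end, 400 bp wide, without height, score or p-value. The Santa Cruz track lines give 1e-12 as the threshold. For R&D Systems it is not given in the sources used here, so list lengths cannot be compared between antibodies. Which input each list was called against is likewise not given.

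Windows were the gene bodies with 50 kb on each side. Peaks were counted by midpoint with Python 3.11.15, overlaps of at least 1 bp were checked with bedtools 2.31.1, and exact 95% intervals were computed with SciPy 1.17.1. The functions were tested on simulated data. Figures were drawn with matplotlib 3.10.9. Tiles of 114 kb ran from the first to the last peak of each chromosome, the mitochondrial one excluded. Positions are counted from 1. The strand was read from the RefSeq promoter table for 5 members and from general knowledge for the others. The windows and lists were chosen with earlier results of these data known. All 10 members are named, and every peak is accounted for. Motifs under peaks, other WNT pathway genes and protein identity, which the design set out, were not run, for want of an hg19 genome or annotation and of protein sequences. Frizzled peaks per 1000 peaks were compared between the media within each antibody by exact permutation, a comparison added after seeing the data. Alternatives covered the flank, the overlap, the antibody and the tiles.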

Additional observations from a re-analysis of the deposited data

How the results depend on the processing

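A value was taken as moved when a count changed by over 1.5 times or a share left its 95% interval. With 10 kb on each side the counts were 14 R&D Systems FLyA, 10 R&D Systems FLyB, 0 Santa Cruz FLyA and 1 Santa Cruz FLyB peaks, and 5 windows held an R&D Systems FLyB peak. With 100 kb on each side there were 44 R&D Systems FLyB peaks. Narrower windows hold fewer peaks by construction. In the Santa Cruz lists 2 windows held a FLyA peak and 2 a FLyB peak, and 100% of these few peaks were unshared in either medium. Leaving out FZD2 and FZD10, chosen after seeing the data, gave 80.8% unshared in FLyA. Tiles of 100 kb, also chosen after seeing the data, held a FLyA peak in 48.9% and a FLyB peak in 41.6% of cases, as smaller tiles must. The other 36 of 49 alternatives stayed within these limits. Pairing the media within each antibody, added after seeing the data, gave p = 0.5 for Frizzled peaks per 1000 peaks (two-sided exact permutation test, the smallest value 2 pairs allow), and 0.667 without the pairing. The peak counts themselves were not tested. Alternatives for motifs and WNT pathway genes were not run. Depth in numbers and peak heights are unknown, so peaks near the calling threshold cannot be told from firm ones.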
